A study of Mus musculus with 4 samples.

Results

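The genes described here are 32 mouse genes of the exon junction complex, nonsense-mediated decay (NMD), 3′ end cleavage and polyadenylation, and mRNA export. They were taken by name from a list, and their symbols were matched by gene ID in the count files, which hold 56748 gene IDs. All 32 were matched, *Symplk* under the GENCODE symbol *Sympk*. Direct RNA of C2C12, an established mouse myoblast line of wild-type genotype kept in growth medium, was sequenced on nanopore flow cells. There were 2 libraries of cells with a scrambled shRNA (scrambled 1 and 2) and 2 of cells with a cocktail of 3 shRNAs against *Hnrnpl* (knockdown 1 and 2). All cells carried a plasmid with an eGFP reporter and were selected with puromycin. Replicates within a group were passages of the same selected line, so a difference between groups cannot be told apart from a difference between those selected lines, and p-values measure the spread between passages. The labels give 2 batches, each with the libraries of 1 number. The comparison asks whether the mRNA levels of these genes differed after the knockdown of *Hnrnpl*, which codes for the RNA-binding protein hnRNP L.

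The exon junction complex (EJC) is left on mRNA by the spliceosome a short way upstream of each exon junction. It is built on the RNA helicase eIF4A3 with MAGOH, RBM8A (Y14) and CASC3. When a ribosome stops upstream of a remaining complex, UPF3, UPF2 and UPF1 are brought together, SMG1 phosphorylates UPF1, and SMG5 and SMG6 lead the mRNA into decay. At the 3′ end, CPSF reads the AATAAA signal and cuts, CstF binds the GU-rich element downstream, cleavage factors I and II (CFI and CFII) help to choose and cut the site, and poly(A) polymerase adds the tail. NXF1, brought to mRNA by ALYREF, carries it through the nuclear pore.

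Reads counted to genes ranged from 1229424 (knockdown 2) to 1676911 (scrambled 2) in a library. A count of 0 therefore allows up to 3 counts, or 1.79 to 2.44 CPM (counts scaled to the library total). *Hnrnpl* itself had 358 and 656 reads in the scrambled libraries and 242 and 258 after knockdown, a log2 fold change of -0.78 ± 0.18 (SE, edgeR adjusted p = 0.0112). Without scrambled 2 this was -0.48 (edgeR adjusted p = 0.194), and without knockdown 1 it was -0.62 (edgeR adjusted p = 0.150). Of 7 myoblast markers 6 had reads, summing to 901 and 1326 for scrambled against 612 and 448 for knockdown, with *Pax7* at 0 and *Myod1* at 1 read in all. Of 11 markers of differentiated muscle 4 had reads, 11 to 19 in a library, with *Myog* at 0. Epithelial markers were at 0, immune markers summed to 3 to 7 reads with *Ptprc* at 0, endothelial markers to 0 or 1 with *Pecam1* at 0, and of the neural markers only *Tubb3* had reads (18 to 150) with *Sox10* at 0. The myoblast markers *Cdh15*, *Chrna1* and *Des* and the neural marker *Tubb3* moved with the knockdown. Their part in the results below was not tested.

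Direct RNA reads start at the poly(A) tail, so each read of a member begins at the kind of site that the members' own proteins cut. The annotated 3′ ends are shown for the genes on which the results turn, as 30 bases of the transcript strand read from GRCm39 at the end of the canonical GENCODE vM39 transcript. A copy of the hexamer AATAAA is in capitals in each, and other or overlapping copies are not marked. The genes shown are the 3 members with the smallest p-values, *Magoh* as the paralogue of *Magohb*, the paralogue pair *Upf3a* and *Upf3b*, the most abundant member and *Upf1*, the helicase at the centre of NMD:
Magohb, chr6:131261354-131261383, minus strand: aaattttgctctAATAAAatgtaccaaagc
Magoh, chr4:107744570-107744599, plus strand: atgatgatctttAATAAAtgcgataacatc
Rbm8a, chr3:96541073-96541102, plus strand: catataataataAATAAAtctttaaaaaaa
Smg1, chr7:117730541-117730570, minus strand: caaaaaaataaaAATAAAggttcaagtctt
Upf3a, chr8:13849147-13849176, plus strand: ttacataaaataAATAAAtcttgagggaaa
Upf3b, chrX:36355342-36355371, minus strand: tgtaatgctgtcAATAAAtttccacttcgt
Pabpc1, chr15:36595908-36595937, minus strand: aattcttgctttAATAAAaattccttaaac
Upf1, chr8:70784176-70784205, minus strand: ctttttgtcaccAATAAAacatgaacaaac

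AATAAA lay in the last 50 transcript bases of 25 of the 32 members (78.1%), against 61.1% of 8231 tested protein-coding genes, searched on the transcript strand. ATTAAA without AATAAA was found in 3 members (9.38%, against 15.6%), *Eif4a3*, *Cpsf4* and *Nudt21*. hnRNP L is known to bind CA repeats and CA-rich clusters. Only exact repeats in spliced canonical transcripts were searched here, so sites in introns or looser clusters would be missed. The letters CACACACACA were in the last 1000 bases of none of the 30 members long enough to search, and of 3.52% of 7892 protein-coding genes.

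The shRNA targets were also compared with the members, to show how much of each they share. Each target of 21 bases matched *Hnrnpl* over its whole length. The longest unbroken run shared with the canonical transcript of any member was 10 bases in *Cstf3* for target 1, 9 bases in *Papola* for target 2 and 10 bases in *Smg1* for target 3. That run is in capitals:
Target 1: attgacggagtAGTGGAAGCT
Target 2: ctacTCCATAACCacggatgt
Target 3: atggtctATGGCTTGGAtcaa

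None of the 32 genes passed the test between knockdown and scrambled. Of the members 29 had enough reads to be tested, and 0 had an edgeR adjusted p under 0.05, a level that 5.95% of the 8670 tested genes reached. At an unadjusted p under 0.05 there were 3 members of 29 (10.3%), against 21.8% of all tested genes, and DESeq2 with the local fit gave 0 adjusted and 2 unadjusted. The 3 were *Magohb*, *Rbm8a* and *Smg1*, each with more normalized counts in knockdown, and in this fit no member was at that level in the other direction. With the replicate block, which pairs libraries by batch, *Upf3a* was lower in knockdown at that level as well. Of all tested genes, 10.3% were higher and 11.5% lower at that level. In bulk RNA, fewer cells with a transcript and less of it per cell cannot be told apart. With the further thresholds of the study (a change beyond 0.5 in either direction on the log2 scale, and a mean count over 10), 0 members passed beside 5.55% of all tested genes. The smallest adjusted p of a member was 0.102 (*Magohb*, edgeR).

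The differences were also small. The median log2 fold change of the 29 was -0.03, against -0.00 over all tested genes, with 12 values above 0 and 17 below. Leaving out 1 library moved this median between -0.13 (without scrambled 1) and 0.10 (without scrambled 2). In this fit only *Cstf2* was beyond 0.5 in size, which 22.5% of all tested genes were. Without knockdown 2 other members were beyond it as well, among them *Magohb* (0.51), *Smg1* (0.54), *Upf3a* (-0.86), *Upf3b* (0.66) and *Nudt21* (0.67). With the chromosome medians removed *Cstf2* was at -0.42, while *Smg1* (0.53), *Upf3b* (0.57) and *Nudt21* (0.55) were beyond 0.5. Normalized counts (TMM-scaled to an average library) did not overlap between the groups for 14 members (48.3%), 9 higher and 5 lower in knockdown. Among all tested genes this was 52.4%, with 26.4% higher and 26% lower.

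**Figure D1:**
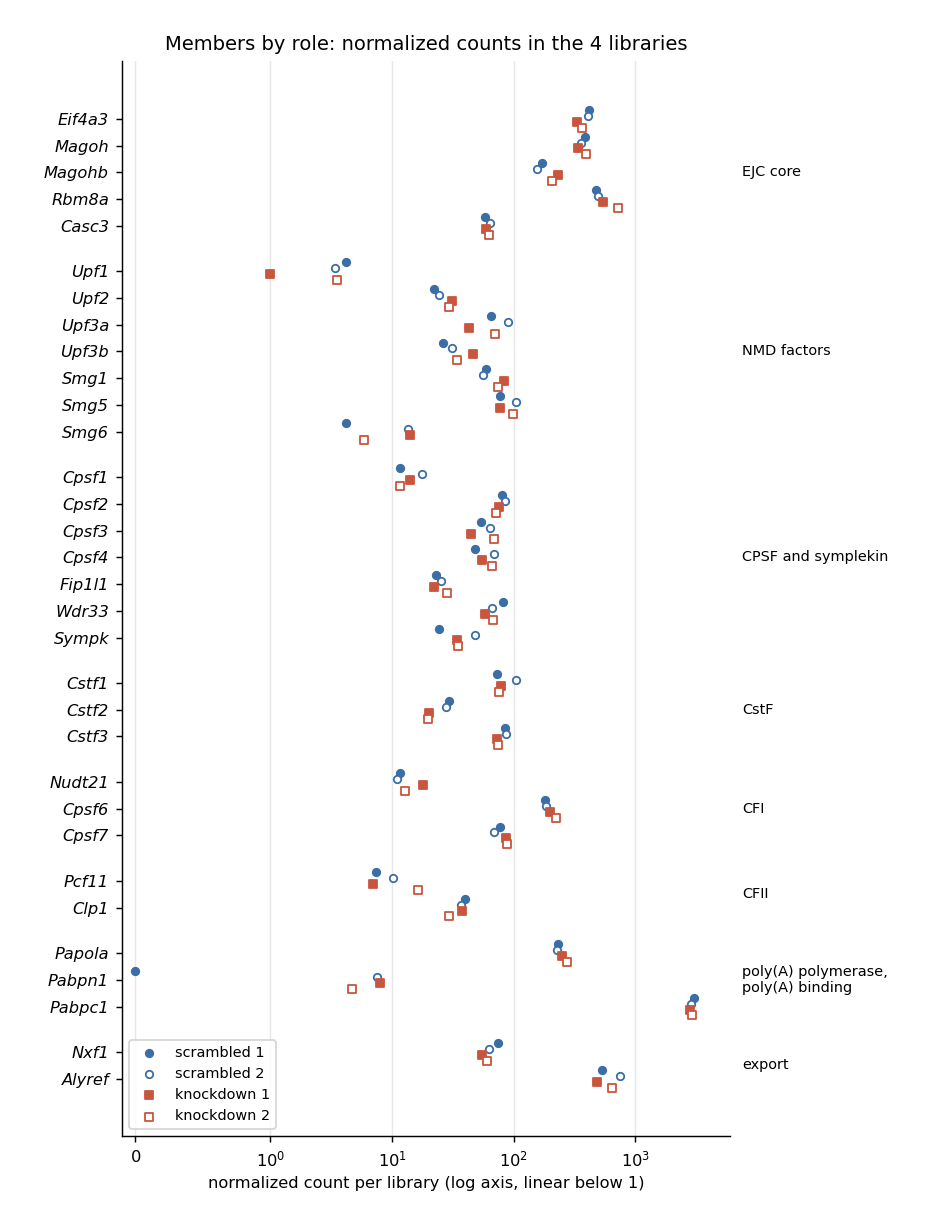
Normalized counts of the 32 members in each library (x axis, log scale, linear below 1), in rows by role; circles are scrambled, squares knockdown, filled symbols batch 1 and open symbols batch 2. *Pabpc1* stands above the other members in each library, and for most members the 4 symbols lie close together.

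**Figure D2:**
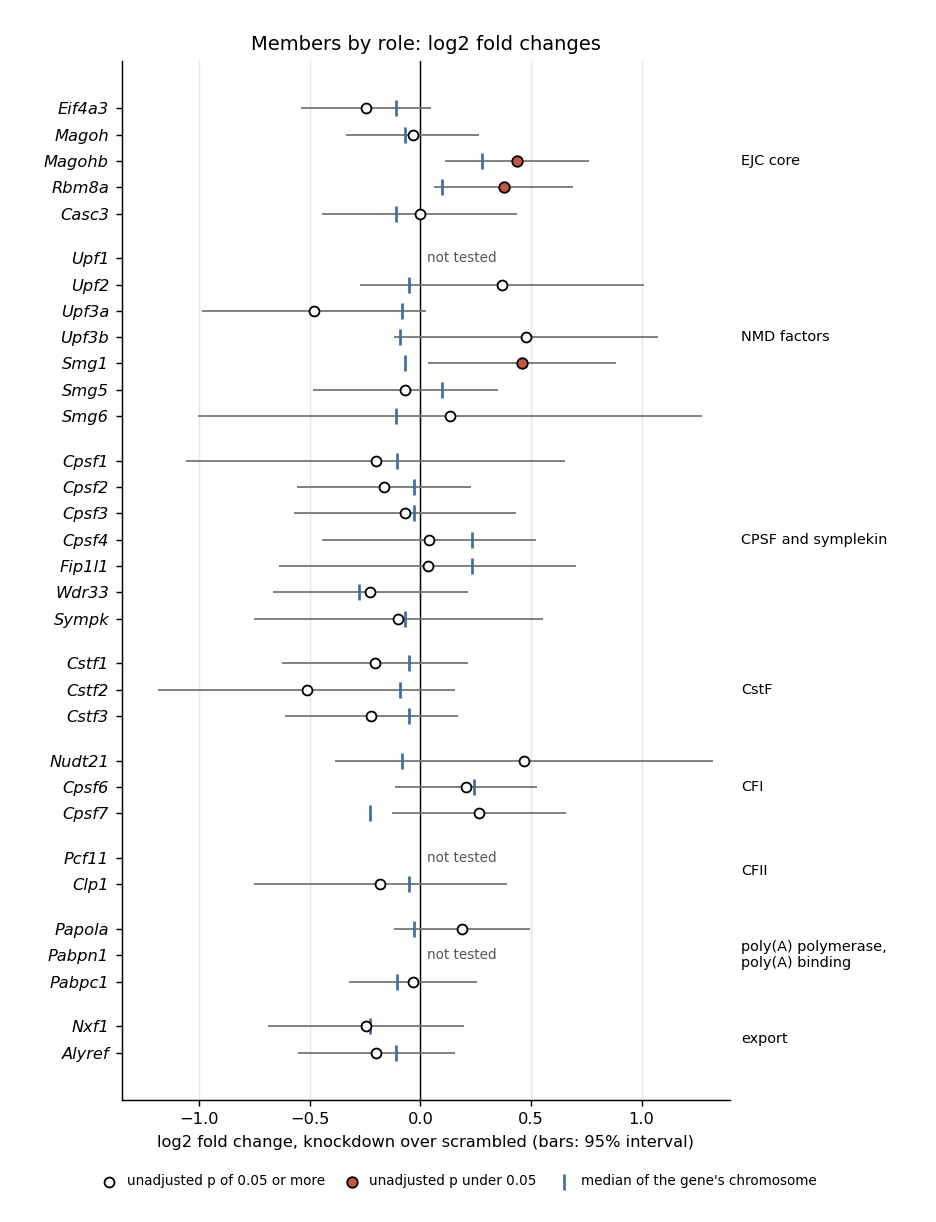
Log2 fold change of knockdown over scrambled (x axis) for the 29 tested members, with the 95% interval of the edgeR fit as a bar and the median of all tested genes of the same chromosome as a blue tick. The intervals of *Magohb*, *Rbm8a* and *Smg1* (filled) lie above 0, all others include 0, and 3 members were not tested.

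The members spanned a wide range of levels. For levels per length, CPM were scaled to the TMM-adjusted library sizes rather than to the library totals. Per length, as CPM per kb of the canonical transcript, the highest was *Pabpc1*, the cytoplasmic poly(A)-binding protein, with a mean of 744 in scrambled and 727 in knockdown. Next came *Magoh* (378 and 369), *Eif4a3* (194 and 164), *Magohb* (150 and 202), *Rbm8a* (131 and 170) and *Alyref* (124 and 108). The other tested members ranged from 1.07 CPM per kb (*Smg6*) to 40.9 (*Papola*). The level of *Smg6* is uncertain, since its 3′ end lies under *Hic1* on the opposite strand, as described below. A direct RNA read can cover a whole molecule, so counts need not grow with transcript length. Scaling by length can therefore place long transcripts such as *Smg1* (15561 bases) too low, and the order above depends on it. Without it, mean normalized counts over all libraries were 598 for *Alyref*, 560 for *Rbm8a*, 380 for *Eif4a3* and 368 for *Magoh*.

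The EJC core was well covered, and 2 of its 5 members were the ones with the smallest p-values of the list. *Magohb*, the second copy of the gene for the MAGOH subunit, was covered by 162 and 185 scrambled and 232 and 178 knockdown reads. As normalized counts this was 163 ± 9.89 in scrambled and 220 ± 16.4 in knockdown (SD, n = 2). Both knockdown values lay above both scrambled values, by a log2 ratio of 0.45 in batch 1 and 0.42 in batch 2. The log2 fold change was 0.44 ± 0.15 (SE, edgeR unadjusted p = 0.0109, adjusted p = 0.102), with a 95% interval from 0.11 to 0.76.

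*Magohb* lies on chromosome 6 from 131261351 to 131270215 on the minus strand, and 22.2% of its exon bases are shared with *Gm44958* on the same strand. The 404 tested genes of chromosome 6 had a median log2 fold change of 0.28. With the chromosome medians removed, *Magohb* was at 0.16 (edgeR unadjusted p = 0.314).

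*Rbm8a* codes for Y14, the partner with which MAGOH proteins form a dimer. It had 457 and 587 reads in the scrambled libraries and 543 and 620 after knockdown, or 487 ± 10.9 and 633 ± 130 normalized counts (SD, n = 2). The groups did not overlap, and knockdown 2 was the highest, with log2 ratios of 0.18 in batch 1 and 0.55 in batch 2. The log2 fold change was 0.38 ± 0.15 (SE, edgeR unadjusted p = 0.0211, adjusted p = 0.144), with a 95% interval from 0.06 to 0.69. Without knockdown 2 it was 0.15 (edgeR unadjusted p = 0.348), and without knockdown 1 it was 0.58 (edgeR unadjusted p = 0.00188, adjusted p = 0.0664). With the chromosome medians removed it was 0.28 (edgeR unadjusted p = 0.0768).

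The helicase gene *Eif4a3* stood on the other side of 0. It was covered by 396 and 485 scrambled and 331 and 312 knockdown reads, and both knockdown libraries were lower as normalized counts (412 ± 4.67 against 347 ± 24.7, SD, n = 2). Its log2 fold change of -0.25 did not pass the test (edgeR unadjusted p = 0.0947), and with the chromosome medians removed it was -0.14 (edgeR unadjusted p = 0.341). *Casc3*, the remaining core subunit, had 55 to 76 reads, overlapping groups and a log2 fold change of -0.00. The summed normalized counts of the 5 genes were 1510 and 1478 for scrambled against 1499 and 1751 for knockdown, which overlapped.

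*Magoh* and *Magohb* code for nearly the same protein, and their shares of the reads of the pair were compared. *Magoh* had 371 and 422 reads in the scrambled libraries and 338 and 333 after knockdown, with a log2 fold change of -0.03 (95% interval -0.34 to 0.27). *Magohb* made up 30.4% (95% exact binomial interval 26.5 to 34.5%) and 30.5% (26.8 to 34.3%) of the pair in scrambled, and 40.7% (36.6 to 44.9%) and 34.8% (30.7 to 39.1%) in knockdown. These intervals cover counting error only. The share was higher in both knockdown libraries, by 7.33 percentage points on average, and the interval of knockdown 2 overlaps both of those in scrambled. The exact two-sided permutation test gave p = 0.333, the smallest value that 2 against 2 libraries allow. *Magoh* lies on chromosome 4, where the median log2 fold change was -0.07. With the chromosome medians removed, *Magoh* was at 0.04 and *Magohb* at 0.16. The coding sequences of the genes are 81.0% identical and the parts after the stop codon 65.5%, and each canonical transcript mapped back to its own gene with a mapping quality of 60.

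Of the NMD factors, 6 of 7 could be tested, and 1, *Smg1*, had an unadjusted p under 0.05. *Smg1* codes for the kinase of UPF1. It was covered by 56 and 66 scrambled and 83 and 63 knockdown reads, or 57.1 ± 2.20 and 78.2 ± 6.41 normalized counts (SD, n = 2). The groups did not overlap, and the log2 ratio was 0.49 in batch 1 and 0.40 in batch 2. The log2 fold change was 0.46 ± 0.20 (SE, edgeR unadjusted p = 0.0353, adjusted p = 0.191), with a 95% interval from 0.04 to 0.88. *Smg1* lies on chromosome 7 from 117730527 to 117842893, where the median log2 fold change was -0.07, and with the chromosome medians removed its value was 0.53 (edgeR unadjusted p = 0.0177). With the gene-length trend removed *Smg1* was at 0.39 (edgeR unadjusted p = 0.0682). When a library was left out its value ranged from 0.37 to 0.54. With DESeq2 and the local fit its unadjusted p was 0.143.

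The lowest and the highest log2 fold change among the NMD factors belonged to the paralogues *Upf3a* and *Upf3b*, which code for the proteins that link UPF2 to the EJC. *Upf3a* had 62 and 106 reads in the scrambled libraries and 43 and 60 after knockdown, with a log2 fold change of -0.48 (edgeR unadjusted p = 0.0622, adjusted p = 0.258). Leaving out 1 library moved it between -0.15 (without knockdown 1) and -0.86 (without knockdown 2, edgeR unadjusted p = 0.00543, adjusted p = 0.0826). Across batches its normalized counts overlapped, since knockdown 2 (70.2) was above scrambled 1 (65.0), while within the batches the log2 ratios were -0.59 and -0.34. With the replicate block the log2 fold change was -0.46 (edgeR unadjusted p = 0.0429, adjusted p = 0.223). *Upf3b* was covered by 25 and 37 scrambled and 46 and 29 knockdown reads, with a log2 fold change of 0.48 (edgeR unadjusted p = 0.111, adjusted p = 0.346). Its normalized counts were higher in both knockdown libraries (28.7 ± 3.50 against 39.9 ± 8.45, SD, n = 2).

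The share of *Upf3b* in the reads of the pair was 28.7% (95% exact binomial interval 19.5 to 39.4%) and 25.9% (18.9 to 33.9%) in scrambled. It was 51.7% (40.8 to 62.4%) and 32.6% (23.0 to 43.3%) in knockdown, with 87 to 143 reads of the pair in a library. Both knockdown shares were higher, by 14.8 percentage points on average, and the interval of knockdown 2 overlaps both of those in scrambled. The exact two-sided permutation test again gave its smallest value, p = 0.333. The coding sequences of this pair are 65.9% identical.

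**Figure D3:**
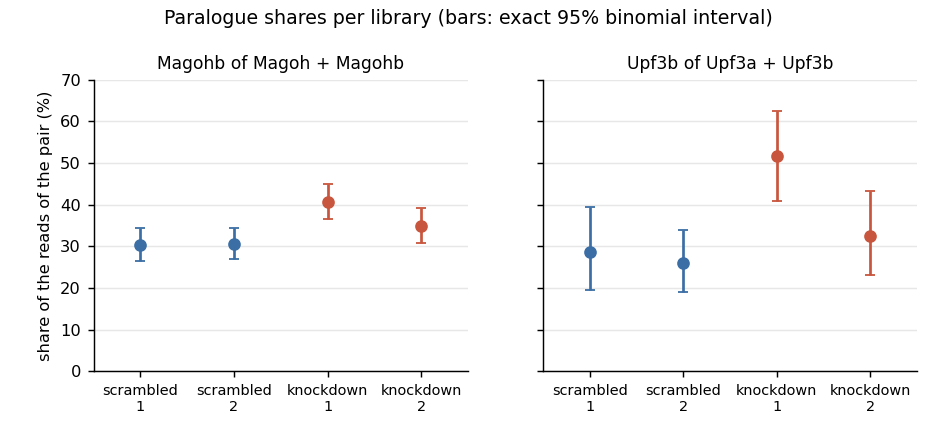
Share of *Magohb* and of *Upf3b* in the reads of each paralogue pair (y axis, %), for the 4 libraries, with exact 95% binomial intervals for counting error. In both pairs the knockdown libraries lie above the scrambled ones, with knockdown 1 the higher (40.7% and 51.7%).

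Among the other NMD factors, *Upf2*, which bridges UPF1 and UPF3, had 21 to 31 reads in a library and a log2 fold change with a 95% interval from -0.27 to 1.01. *Smg5*, an adaptor that binds phosphorylated UPF1, had 74 to 124 reads and overlapping groups. The endonuclease gene *Smg6* had 4, 16, 14 and 5 reads in scrambled 1 and 2 and knockdown 1 and 2, so its replicates differed more than its groups. *Upf1* had 4, 4, 1 and 3 reads and was below the filter, so its groups were not compared.

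CPSF and its scaffold symplekin gave 7 tested members, none with an unadjusted p under 0.05, and log2 fold changes from -0.23 to 0.04. The lowest was *Wdr33*, which with CPSF4 reads the AATAAA signal, with 78 reads in each scrambled and 58 in each knockdown library. As normalized counts its groups overlapped (65.7 and 81.7 in scrambled, 57.8 and 67.8 in knockdown). *Wdr33* lies on chromosome 18, where the median was -0.28, and with the chromosome medians removed its value was 0.05. The highest was *Cpsf4*, with 46 and 81 scrambled and 55 and 57 knockdown reads, and a value of 0.04 that became -0.19 with the chromosome medians removed. *Cpsf3*, which codes for the endonuclease that makes the cut, had 45 to 76 reads and overlapping groups. *Cpsf2*, which codes for the inactive relative of that nuclease, had 61 to 100 reads and was the one member of the group whose normalized counts did not overlap, lower in knockdown. *Cpsf1*, *Fip1l1* and *Sympk* had 10 to 57 reads in a library and overlapping groups.

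The 3 CstF genes all had negative log2 fold changes, from -0.51 to -0.21, and none passed the test. *Cstf2*, which codes for the RNA-binding CstF-64 subunit, was the lowest of all 29 members. It had 28 and 33 reads in the scrambled libraries and 20 and 17 after knockdown, or 28.6 ± 1.10 and 19.9 ± 0.0407 normalized counts (SD, n = 2). Its groups did not overlap, and at these counts the 95% interval of the log2 fold change ran from -1.18 to 0.16 (edgeR unadjusted p = 0.124). *Cstf3* was covered by 81 and 102 scrambled and 73 and 63 knockdown reads, with normalized counts that were also lower in both knockdown libraries. *Cstf1* had 70 and 123 reads in the scrambled libraries and 79 and 65 after knockdown, with overlapping groups, and its log2 fold change of -0.21 became 0.07 without scrambled 2. The summed normalized counts of the 3 were 188 and 217 for scrambled against 172 and 170 for knockdown.

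The 3 CFI genes had positive log2 fold changes, from 0.21 to 0.47, and normalized counts that were higher in both knockdown libraries for each of the 3. None passed the test, and such non-overlap to the higher side was seen in 26.4% of all tested genes. *Nudt21*, which codes for the subunit that binds the UGUA element, was covered by 11 and 13 scrambled and 18 and 11 knockdown reads, and the 95% interval of its log2 fold change was -0.39 to 1.32. *Cpsf6* was covered by 172 and 218 scrambled and 200 and 189 knockdown reads, with log2 ratios of 0.15 in batch 1 and 0.27 in batch 2. Its log2 fold change of 0.21 was close to the median of its chromosome, 10 (0.24), and turned to -0.03 with the chromosome medians removed. When a library was left out, *Cpsf6* ranged from 0.13 to 0.28. *Cpsf7*, the alternative large subunit, had 73 and 82 reads in the scrambled libraries and 87 and 75 after knockdown and a log2 fold change of 0.27 (95% interval -0.13 to 0.66). It lies on chromosome 19, where the median was -0.23, and with the chromosome medians removed it was at 0.49 (edgeR unadjusted p = 0.0163, adjusted p = 0.192). Summed, the 3 genes had 268 and 264 normalized counts in scrambled and 304 and 322 in knockdown.

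Of the CFII genes, *Clp1*, an RNA kinase, was covered by 38 and 44 scrambled and 38 and 25 knockdown reads with overlapping groups and a log2 fold change of -0.18. *Pcf11* had 7, 12, 7 and 14 reads and was below the filter.

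Of the poly(A) tail genes, *Papola* and *Pabpc1* were tested and did not pass. *Pabpc1* had 2897 and 3384 reads in the scrambled libraries and 2818 and 2514 after knockdown, the deepest coverage of the list. Its normalized counts overlapped (2942 ± 132 against 2875 ± 92.4, SD, n = 2), and the 95% interval of its log2 fold change was -0.32 to 0.25. *Papola*, the canonical poly(A) polymerase, was covered by 221 and 270 scrambled and 252 and 233 knockdown reads. Its normalized counts were higher in both knockdown libraries, with a log2 fold change of 0.19 (95% interval -0.12 to 0.50). *Pabpn1*, the nuclear poly(A)-binding protein, had 0, 9, 8 and 4 reads and was below the filter. Of its exon bases 16.4% are shared with *Gm20521* on the same strand.

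Both export genes had negative log2 fold changes that did not pass the test. *Nxf1*, the export receptor, had 71 and 75 reads in the scrambled libraries and 55 and 52 after knockdown, with both knockdown libraries lower as normalized counts and a log2 fold change of -0.25. This was near the median of its chromosome, 19, and became -0.02 with the chromosome medians removed. *Alyref*, the adaptor, was covered by 504 and 889 scrambled and 481 and 545 knockdown reads. Scrambled 2 stood above the other libraries, the groups overlapped, and the log2 fold change of -0.20 became 0.07 without scrambled 2.

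The batches gave each member 2 separate ratios. For the members with the smallest p-values both ratios were positive. This had to be so, since their normalized counts were higher in both knockdown libraries than in both scrambled ones. For *Smg6*, with few reads, the ratios were 1.62 and -1.14. The median over the tested members was 0.03 in batch 1 and -0.02 in batch 2.

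**Figure D4:**
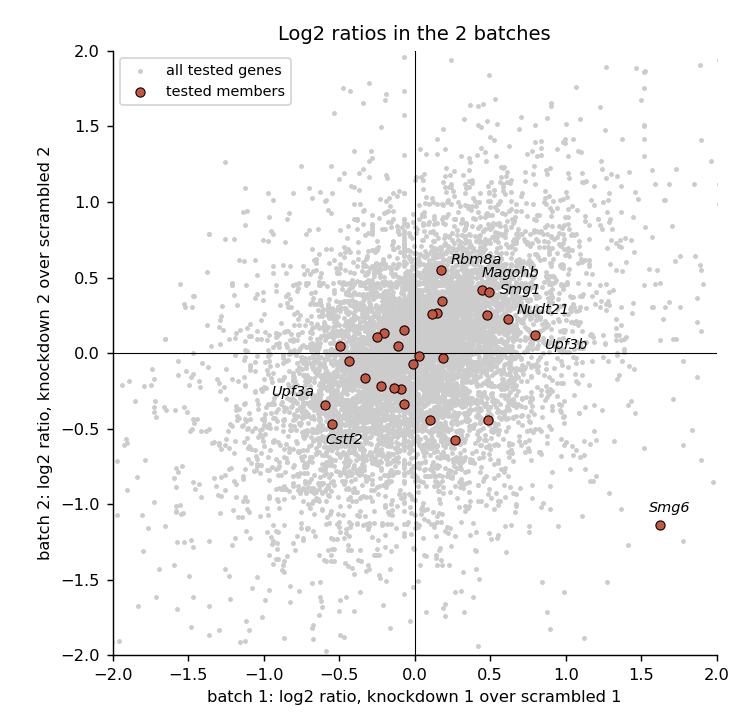
Log2 ratio of knockdown over scrambled within batch 1 (x axis) and batch 2 (y axis) for the tested members (red) and all tested genes (grey), after adding 0.5 to each normalized count; 142 of the 8670 genes lie outside the axes. *Magohb*, *Smg1* and *Rbm8a* are positive in both batches, *Cstf2* and *Upf3a* negative in both, and *Smg6* changes sign.

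Since *Upf1*, *Pcf11* and *Pabpn1* had few reads, the positions of all members were examined. All 32 canonical transcripts, and their last 500 bases alone, mapped back to their own genes with a mapping quality of 60. In 6 members, however, part or all of the last 300 bases lies under exons of a gene on the opposite strand. These were *Upf1* (100%, under *Cers1* and *Gdf1*), *Pcf11* (100%, *6430511E19Rik*), *Smg6* (100%, *Hic1*), *Cstf2* (100%, *Nox1*), *Wdr33* (68.3%, *Sft2d3*) and *Cpsf1* (10.3%, *Adck5*).

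These 6 had 12 to 272 reads over the 4 libraries (median 48), and 2 of them were below the filter. The other 26 had 21 to 11613 reads (median 292.5), with 1 below the filter. Among the 116 further pathway genes described below, 24 have such an overlap (1 of them, *Zc3h11a*, with a gene on the same strand), with 1 to 702 reads (median 60.5) and 11 below the filter. The other 92 had 0 to 2281 reads (median 225.5), with 8 below the filter. The ranges overlap. Of the genes whose last 300 bases lie 100% under another gene, *Exosc3* had 388 reads and *Cnot7* 326, while *Exosc9* had 8, *Ints11* 6 and *Thoc7* 3. *Gapdh*, a housekeeping gene with 100% under *Iffo1*, had 25 to 35 reads in a library. The strand setting of the counting is not given in the sources used here, and between 15.97 and 16.54% of the reads of a library were set aside as ambiguous. Whether reads of these members are among them was not tested. Levels of the 6 are therefore uncertain, while their counts in each library are as deposited.

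**Figure D5:**
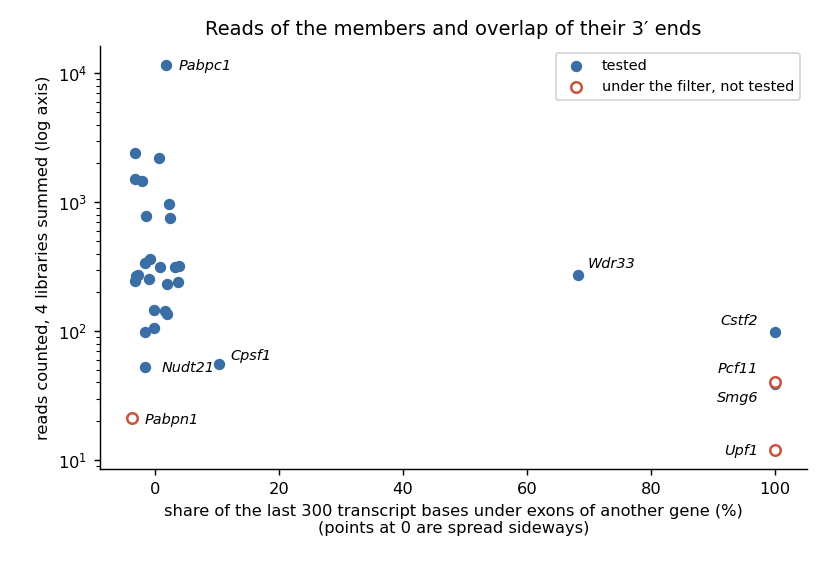
Reads of each member summed over the 4 libraries (y axis, log scale) against the share of the last 300 transcript bases that lies under exons of another gene (x axis, %; points at 0 are spread sideways). Open symbols are members below the filter; of the 4 members at 100% none has more than 98 reads.

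The wider pathways were described with 116 further genes, of which 97 were tested and 5 passed (edgeR adjusted p under 0.05), 3 higher and 2 lower in knockdown. Among all tested genes 2.51% were higher and 3.44% lower at this level. At an unadjusted p under 0.05 there were 14 of 97 (14.4%), against 21.8% of all tested genes.

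Of 8 genes for proteins that join the EJC, none passed and none had an unadjusted p under 0.05. The smallest p-value was that of *Cwc22*, which brings eIF4A3 to the spliceosome, with 14, 30, 13 and 17 reads and a log2 fold change of -0.33 (edgeR adjusted p = 0.673). Of 11 tested genes for other NMD and termination proteins 1 passed. *Etf1*, the release factor eRF1, fell from 596 and 682 reads to 391 and 342, with a log2 fold change of -0.60 ± 0.14 (SE, edgeR adjusted p = 0.0116). On its chromosome, 18, the median was -0.28, and with the chromosome medians removed *Etf1* was at -0.32 and no longer passed (edgeR adjusted p = 0.263).

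Of 12 tested genes for other 3′ end factors 1 passed. *Wdr82*, a subunit of complexes that act on RNA polymerase II and on transcription termination, fell from 133 and 172 reads to 95 and 71, with a log2 fold change of -0.67 ± 0.17 (SE, edgeR adjusted p = 0.0237). Its chromosome, 9, had a median of -0.37, and with the chromosome medians removed it was at -0.31 (edgeR adjusted p = 0.442).

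Of 19 tested genes for other export factors 1 passed. *Ncbp2*, the subunit of the nuclear cap-binding complex that holds the cap, rose from 135 and 159 reads to 221 and 187, with a log2 fold change of 0.67 ± 0.15 (SE, edgeR adjusted p = 0.0127). Of its last 300 bases 48.7% lies under *Senp5* on the opposite strand, so its level carries the uncertainty given above. Its chromosome, 16, had a median of 0.30, and with the chromosome medians removed it was at 0.38 (edgeR adjusted p = 0.247).

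Of 37 tested genes for deadenylation and decay 2 passed, both higher in knockdown. *Cnot9*, a subunit of the CCR4-NOT deadenylase, rose from 116 and 117 reads to 204 and 158, with a log2 fold change of 0.83 ± 0.17 (SE, edgeR adjusted p = 0.00552). It passed with the chromosome medians removed, at a log2 fold change of 0.63, but not with the DESeq2 parametric fit (adjusted p = 0.121). Nor did it pass without scrambled 2 (log2 fold change 0.67) or without knockdown 1 (0.76). *Btg1*, which codes for a protein that binds that deadenylase, rose from 256 and 330 reads to 408 and 326, with a log2 fold change of 0.53 ± 0.14 (SE, edgeR adjusted p = 0.0316). With the replicate block its adjusted p was 0.0569, and with the chromosome medians removed it was at 0.29 (edgeR adjusted p = 0.356).

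The calls of the other 4 genes also changed when a library was left out, which leaves 1 in a group and weakens the test. Their log2 fold changes then ranged from -0.67 to -0.54 (*Etf1*), 0.63 to 0.71 (*Ncbp2*), -0.775 to -0.59 (*Wdr82*) and 0.48 to 0.57 (*Btg1*). *Etf1* did not pass without scrambled 1 (edgeR adjusted p = 0.0842) or knockdown 1 (0.0809). *Ncbp2* did not pass without scrambled 2 (edgeR adjusted p = 0.0949) or knockdown 1 (0.0782). *Wdr82* did not pass without scrambled 2 (edgeR adjusted p = 0.0820), knockdown 1 (0.0782) or knockdown 2 (0.120). *Btg1* did not pass when any 1 of the 4 libraries was left out (edgeR adjusted p from 0.0534 to 0.166). With DESeq2 and the local fit, which the study used, *Wdr82* (adjusted p = 0.132) and *Btg1* (0.0592) did not pass, and with the parametric fit *Etf1* (0.0607), *Ncbp2* (0.231), *Wdr82* (0.450) and *Btg1* (0.283) did not.

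Transcripts known to be NMD substrates were taken as a further list, 19 genes of which 16 were tested. The list includes *Smg5*, *Upf1*, *Upf2*, *Upf3b*, *Smg1* and *Smg6* of the members, since several NMD factors are themselves NMD targets. None passed (edgeR adjusted p under 0.05), 4 had an unadjusted p under 0.05 (25.0%, against 21.8% of all tested genes), 2 of them higher (*Smg1*, *Tbl2*) and 2 lower (*Atf3*, *Zfas1*) in knockdown, and the median log2 fold change was 0.02. Leaving out 1 library turned the sign of this median, from -0.26 (without knockdown 2) to 0.12 (without knockdown 1). The count of the list at an unadjusted p under 0.05 also moved. It was higher without knockdown 2 and lower when any other library was left out. The smallest p-value was that of the stress-response gene *Atf3*, with 14 reads in each scrambled library and 5 and 3 after knockdown, a log2 fold change of -1.58 ± 0.51 (SE, edgeR adjusted p = 0.0744). The non-coding host gene *Zfas1* had 358 and 398 reads in the scrambled libraries and 136 and 260 after knockdown, so its knockdown libraries differed more from each other than its scrambled libraries did. Its log2 fold change of -0.70 did not pass (edgeR adjusted p = 0.0788). With the replicate block, which pairs the libraries by batch, *Zfas1* passed at -0.77 (edgeR adjusted p = 0.0368). It also passed without scrambled 1 (-0.62, edgeR adjusted p = 0.0444), without scrambled 2 (-0.79, edgeR adjusted p = 0.00512), without knockdown 2 (-1.39, edgeR adjusted p = 0.000135) and with no filter on low counts (-0.71, edgeR adjusted p = 0.000661). Without knockdown 2 the stress-response gene *Atf4* passed too, at -0.9998 (edgeR adjusted p = 0.00103), against -0.36 with all libraries and 0.10 without knockdown 1, where *Zfas1* was at -0.22. With DESeq2 and either fit, 0 genes of the list had an unadjusted p under 0.05.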

How the data were processed

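Total RNA of 2 scrambled and 2 *Hnrnpl* knockdown cultures was sequenced as direct RNA. The authors used guppy for basecalling, minimap2 2.17 for splice-aware mapping to GRCm39 and HTSeq 0.9.1 for counting, and deposited whole counts per gene that were not normalized. The annotation release and strand setting are not given in the sources used here. Of all reads 56.5 to 57.8% were counted to a gene, and rows of unassigned reads were left out. GENCODE vM39 matched 56017 of 56748 gene IDs.

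The counts were fitted in edgeR 4.0.16 (R 4.3.3) with TMM, filterByExpr and the quasi-likelihood test, adjusted by Benjamini-Hochberg over 8670 genes and called at 0.05. The mean chi-square of a gene between replicates was 2.64 (scrambled) and 2.95 (knockdown), so replicates differed beyond counting error. The binomial intervals of shares and the limit of 3 counts cover counting error only. Standard errors of edgeR log2 fold changes were computed from the fold change and the F statistic of the test, and intervals from these with a t distribution. They are approximate and include the spread between replicates. Alternatives were RLE factors, filters left off or raised to 10 counts in every library, DESeq2 1.42.0 (local and parametric fits), the replicate block, removal of chromosome medians or of a gene-length trend, mitochondrially encoded genes left out, and each library left out. The replicate number pairs libraries by the batch named in the labels. Over 8557 genes, deviations of scrambled 1 and knockdown 1 from the mean of their group correlated at -0.02. Transcripts were mapped back with minimap2 2.31-r1302. The script was tested on simulated data.

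Members and lists were chosen with earlier results of these data known. Named with full values are members with an unadjusted p under 0.05, the lowest and highest of each role group and the paralogues, and in other lists the genes that passed or had the smallest p. Other names were chosen after their values were seen.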

Additional observations from a re-analysis of the deposited data

How the results depend on the processing

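The count of members with an adjusted p under 0.05 was 0 under all 13 alternatives, while the count at an unadjusted p under 0.05 was 3 as reported, 2 with the DESeq2 local fit, with the chromosome medians removed and with the gene-length trend removed, 4 with no filter on low counts (*Upf3a* added), 0 with the DESeq2 parametric fit, and 0 to 4 when a library was left out, with 0 without scrambled 2. The other pathway genes that passed numbered 5 as reported, 3 with the DESeq2 local fit, 0 with the DESeq2 parametric fit, 1 with the chromosome medians removed, 7 with no filter, 6 with at least 10 counts in each library and 0 to 5 when a library was left out, with 0 without knockdown 1. For the DESeq2 fits the cause was not tested. The median of the members was -0.13 to 0.10 when a library was left out. *Hnrnpl* was -0.78 with the DESeq2 parametric fit (adjusted p = 0.0585) and -1.03 to -0.48 when a library was left out. With the chromosome medians removed the sign turned for *Wdr33* (0.0515), *Cpsf4* (-0.193), *Cpsf6* (-0.0337), *Pabpc1* (0.0711), *Magoh* (0.0358), *Casc3* (0.106) and *Fip1l1* (-0.196), with the gene-length trend removed for *Magoh* (0.0756) and *Casc3* (0.0113), and with the replicate block for *Casc3* (0.0046). When a library was left out, *Cpsf4* ranged from -0.17 to 0.32, *Pabpc1* from -0.0863 to 0.0116, *Magoh* from -0.143 to 0.0679, *Cstf1* from -0.420 to 0.0707, *Upf3a* from -0.861 to -0.149, *Upf3b* from 0.233 to 0.665, *Alyref* from -0.426 to 0.0708, *Casc3* from -0.0730 to 0.0713, *Fip1l1* from -0.145 to 0.211, *Clp1* from -0.389 to -0.0182, *Nudt21* from 0.197 to 0.672, *Wdr33* from -0.392 to -0.0707, *Nxf1* from -0.374 to -0.132, *Cwc22* from -0.65 to 0.13 and *Atf4* from -0.9998 to 0.0979. Where 1 library was left in a group, it was assumed to vary like the other group. With the replicate block for the pairing by batch, 0 members had an adjusted p under 0.05, 4 were at the unadjusted level (the 3 as reported, and *Upf3a*, which was lower), 5 other pathway genes passed and *Hnrnpl* was at -0.76, and the block ended the call of *Btg1* and gave one to *Zfas1* (-0.768, edgeR adjusted p = 0.0368). *Upf1*, *Pcf11* and *Pabpn1* had too few reads to be tested, and why their counts were low was not tested.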
